A study of Saccharomyces cerevisiae with 21 samples.

Results

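The 10 transcription factors described here, FLO8 (YER109C), MSS11 (YMR164C), MIT1 (YEL007W), PHD1 (YKL043W), MGA1 (YGR249W), MSN1 (YOL116W), ASH1 (YKL185W), SOK2 (YMR016C), SFL1 (YOR140W) and YAP6 (YDR259C), were chosen by name as known regulators of filamentous growth in the budding yeast Saccharomyces cerevisiae, and their rows were taken from each count table, which holds 7126 features. Polyadenylated RNA was measured in 21 libraries of Sigma1278B biofilms, 3 for each of 7 groups. Sigma1278B is a laboratory background that forms filaments, and every group was precultured for 16 h in YEPD at 30 °C, spotted in 10 µl at an OD600 of 20 and kept for 24 h on YEPGal with 2% agar. The groups were the wild type (WT), a dig1 mutant labelled hyperfilamentous, and mutants labelled hypofilamentous in rtg3, ras2, spt8 and ste12 and with the allele rim101-531. The labels do not give ploidy, mating type, how the alleles were made or how many clones were used, and separate cultures are not stated for the 3 libraries of each, so a p-value here covers the spread between those libraries alone, which may be technical.

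Filamentous growth is the switch by which yeast cells elongate, bud from one pole, stay attached and invade the surface. It is driven by a mitogen-activated protein kinase (MAPK) pathway that ends in Ste12, which Dig1 represses, and by the Ras and protein kinase A pathway, which acts on Flo8 and Sfl1. Many of these inputs meet at the long promoter of FLO11, which encodes the flocculin that holds cells together, and several of the factors bind each other's promoters. Spt8 is a subunit of the SAGA coactivator, Rim101 is a repressor known from the response to alkaline pH, and Rtg3 is a transcription factor through which the state of the mitochondria reaches nuclear genes.

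Each library held between 2388813 and 3987529 counts on features. DIG1 had 0 to 1 counts in the dig1 libraries, and SPT8, RAS2 and RTG3 had 0 in the libraries of their own mutants. STE12 still had 52 to 68 counts per ste12 library, against 159 to 211 in the wild type, and RIM101 had 376 to 548 in rim101-531, against 527 to 591, so its count does not check that label. The deposited tables of rim101-531 and rtg3 carry the same strain number in their names, and groups follow the labels; RTG3 had 109 to 134 counts per library in rim101-531, where the rtg3 libraries had 0. The a-specific STE2 had 120 to 1720 counts per library and the alpha-specific STE3 had 55 to 164, while the pheromone genes MFALPHA1 and MFA1 had at most 14 and 7. All 10 factors passed the filter on low counts, with 5 to 47 counts per library for MGA1 and 10 to 76 for YAP6, the least precise, and at least 24 per library for each of the others.

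Sequence was read from the R64 reference, which comes from S288C, another background. FLO8 (YER109C, chromosome V, 375215 to 377614, minus strand) is shown because its frame is closed there and RefSeq annotates it as a pseudogene. The first in-frame stop is codon 142 of 800, at positions 377189 to 377191, and it is in capitals below, while the frames of the other 9 factors are open. Sigma1278B is known to carry an intact FLO8, and a count per gene does not show which allele was read.
FLO8 codon 142 and its surroundings, V:377162-377218, minus strand: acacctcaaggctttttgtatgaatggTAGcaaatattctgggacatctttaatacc

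The Ste12 motif TGAAACA, searched on both strands, is shown because dig1 and ste12 are mutants of that pathway. It occurred within 1000 bases before the start codon in 4 of the 10 factors, against 23.0% of 5997 genes, and in none of the 10 between 250 bases before and 50 bases after the start, against 7.5% of 6002. The 5 matches, in capitals, read on the strand of the gene, were as follows, and a match is not a known site.
MSS11, XIII:590138-590164, minus strand, 604 bases before the start and inside the neighbouring PAH1: aaagtgttaaTGAAACAgggcgcaatc
MSS11, XIII:590219-590245, minus strand, 685 bases before the start and inside PAH1: caacaagaatTGTTTCAaagatcaacg
MIT1, V:141419-141445, plus strand, 463 bases before the start: atgtgccgttTGTTTCAatttggctga
PHD1, XI:356254-356280, plus strand, 484 bases before the start: taactgttccTGTTTCAagttacggaa
SFL1, XV:586655-586681, plus strand, 316 bases before the start: aaagggttgtTGAAACAgaaacacaaa

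The motif GTCAC, which the Rtg1 and Rtg3 pair is known to bind, was searched on both strands. It occurred within 1000 bases in 7 of the 10 factors and in 68.5% of all genes. Of the factors that rose in rtg3 (below), MSN1 had it 787 bases before its start, and PHD1 was among the 3 without it. The Tec1 motif CATTCC occurred in 3 of 10, against 35.3%, and CATTCT in 8 of 10, against 51.2%. The Rim101 motif GCCAAG occurred in 5 of 10, against 37.0%. None of these shares was tested.

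The 10 genes lay on 6 chromosomes. The distance from the start codon to the next annotated gene upstream had a median of 966.5 bases, against 422 over 5995 genes, with a range from 105 bases for PHD1 to 1895 for SOK2. Per kilobase of coding length, 8 of the 10 lay below the median of all genes in the wild type, which was 46.0 CPM per kb (CPM is the usual count scaled by library size, here with TMM factors). ASH1 was the most abundant on this scale at 58.0 CPM per kb, MIT1 followed at 50.7, and MGA1 was the lowest at 4.99.

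**Figure D1:**
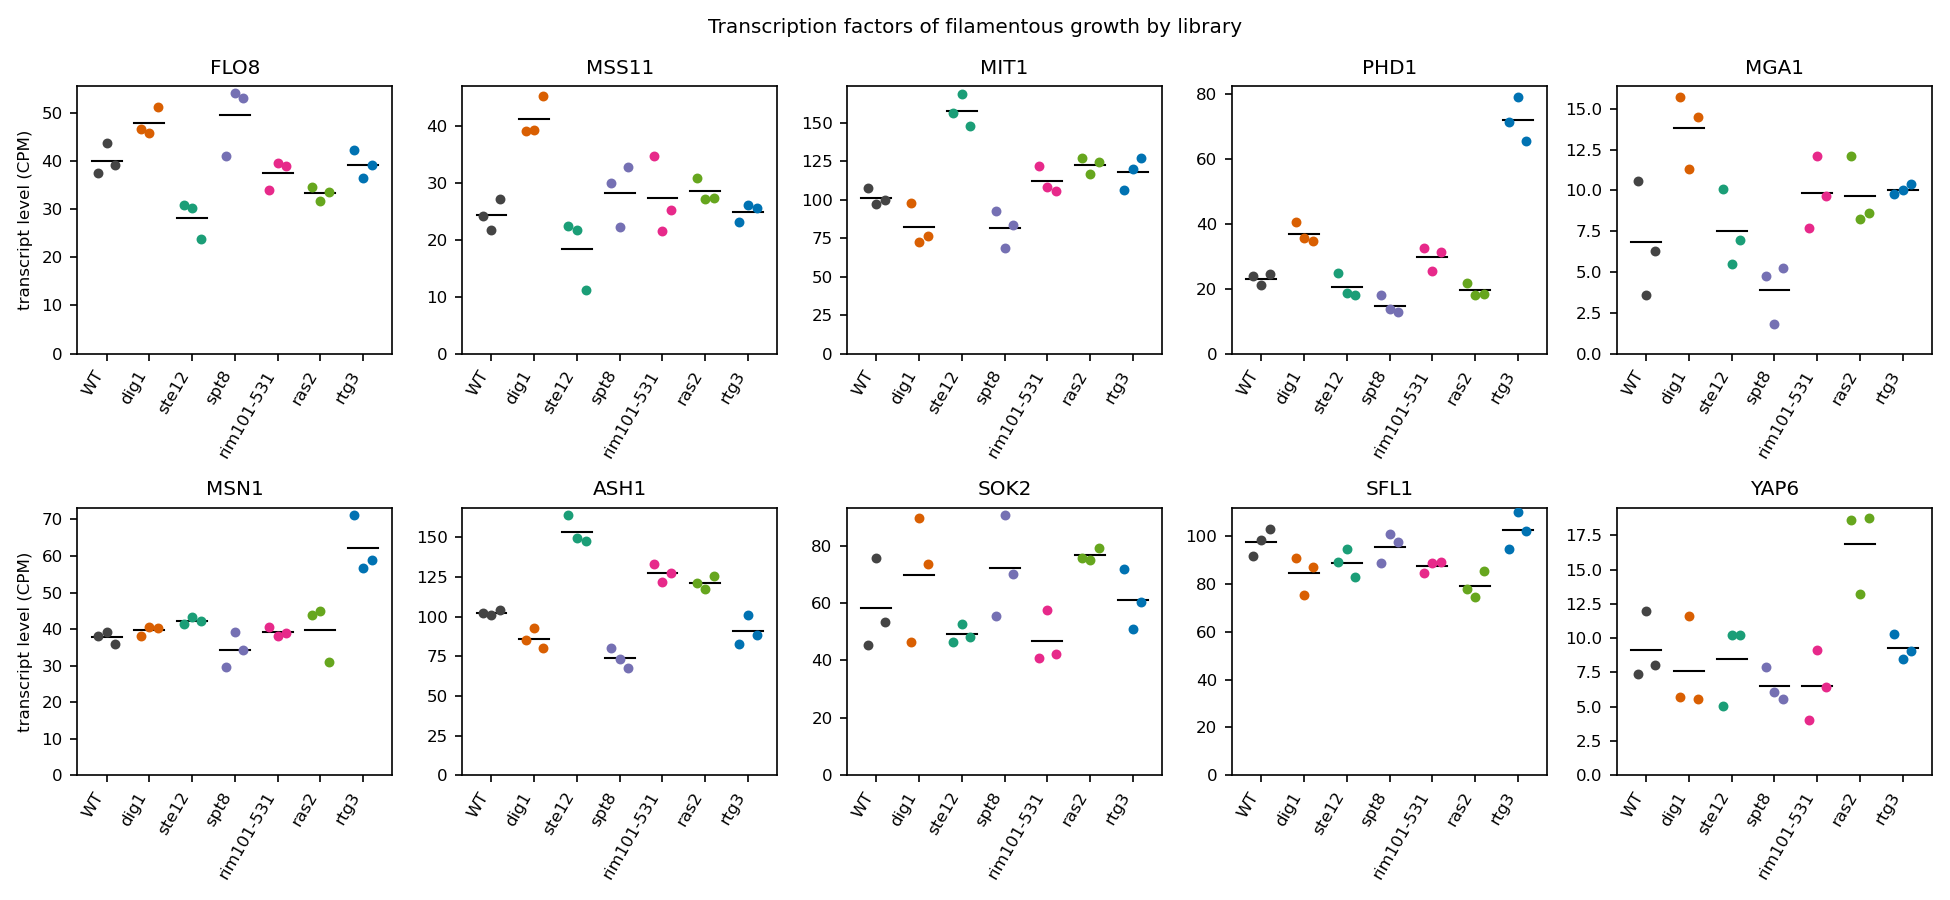
Transcript level in CPM (linear axes from 0) of the 10 factors in each of the 21 libraries, with points for libraries and a bar for the mean of 3. PHD1 in rtg3, at 65.5 to 79.1 CPM, lies above all other libraries, and MIT1 and ASH1 are highest in ste12.

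Among the 7 groups, 9 of the 10 factors differed, against 63.5% of the 5786 genes tested (edgeR quasi-likelihood F test, Benjamini-Hochberg adjusted p under 0.05). Group means of PHD1 spanned a 4.85-fold range, those of MGA1 3.53-fold and of YAP6 2.59-fold, while those of SFL1 spanned 1.29-fold. SOK2 did not pass (adjusted p = 0.0586), and SFL1 passed narrowly (adjusted p = 0.0282). The call of SFL1 was lost without WT replicate 3 (0.0508), ras2 replicate 1 (0.0655), ras2 replicate 2 (0.0851), rtg3 replicate 2 (0.0705) or rtg3 replicate 3 (0.0613). SOK2 passed without WT replicate 1 (0.0498), WT replicate 2 (0.0227), dig1 replicate 1 (0.00863), dig1 replicate 2 (0.0352), spt8 replicate 1 (0.0317) or rim101-531 replicate 2 (0.0303), with upper quartile factors (0.029), and by the likelihood ratio test of DESeq2 (0.0428). The 6 comparisons with the wild type below share its 3 libraries. The median size of the log2 fold change against the wild type over the 10 factors was 0.21 in ste12, 0.27 in dig1, 0.31 in spt8, 0.23 in rim101-531, 0.27 in ras2 and 0.12 in rtg3. Over all tested genes it was 0.21, 0.20, 0.25, 0.16, 0.25 and 0.25 in the same order.

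In dig1, the hyperfilamentous mutant, 3 of the 10 factors rose and none fell, against 15.7% of all tested genes called in either direction, 8.02% higher and 7.69% lower. They were MSS11, PHD1 and MGA1, all counted as activators, as are FLO8, MIT1, MSN1 and ASH1, which did not pass. Mss11 is a partner of Flo8 at the FLO11 promoter, Phd1 is a DNA-binding protein whose overproduction brings on filaments, and Mga1 resembles heat shock factors. Levels of MSS11 were 39.1, 39.2 and 45.3 CPM in dig1 and 24.2, 21.8 and 27.2 CPM in the wild type. All dig1 libraries lay above all wild-type libraries, with a log2 fold change of 0.76 ± 0.19 (SE), or 1.69-fold (edgeR adjusted p = 0.00913). Levels of PHD1 were 40.5, 35.5 and 34.6 CPM in dig1 and 23.9, 21.1 and 24.4 CPM in the wild type. These groups did not overlap either, and the log2 fold change was 0.67 ± 0.14 (edgeR adjusted p = 0.00256). In bulk RNA of a biofilm, here and below, a higher or lower level from a different share of cells of a kind cannot be told apart from more or less RNA per cell.

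MGA1 was at 15.7, 11.3 and 14.5 CPM in dig1 and at 10.6, 3.58 and 6.28 CPM in the wild type. The lowest dig1 library lay just above the highest wild-type library, and the log2 fold change was 1.01 ± 0.31 (edgeR adjusted p = 0.0329). This call was lost without WT replicate 2 (0.149), WT replicate 3 (0.0972), dig1 replicate 1 (0.0807) or dig1 replicate 3 (0.0811), and when only the dig1 and wild-type libraries were fitted (0.127). Among factors that did not pass, MIT1 had a log2 fold change of -0.30 (adjusted p = 0.113, and 0.0299 without dig1 replicate 1), ASH1 -0.25 (0.089) and FLO8 0.25 (0.172).

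In ste12, MIT1 and ASH1 rose and FLO8 fell, 3 of 10 factors against 9.97% of all tested genes, 4.77% higher and 5.20% lower. Mit1 binds the FLO11 promoter and is needed for filaments, and Ash1, known for its messenger that is carried into the daughter cell, is also needed for them. FLO8 encodes the activator that carries the protein kinase A signal to FLO11. MIT1 was at 156.8, 169.1 and 148.4 CPM in ste12 and at 107.5, 97.2 and 99.8 CPM in the wild type. The log2 fold change was 0.64 ± 0.12, or 1.56-fold (edgeR adjusted p = 0.00152). ASH1 was at 164.1, 149.6 and 147.5 CPM against 102.3, 101.1 and 104.0 CPM, a log2 fold change of 0.59 ± 0.09 (edgeR adjusted p = 0.000328). For both genes, every ste12 library lay above every library of the other 6 groups.

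FLO8 was at 30.8, 30.2 and 23.7 CPM in ste12 and at 37.4, 43.6 and 39.1 CPM in the wild type. The ste12 libraries were the lowest 3 of the 21, and the log2 fold change was -0.50 ± 0.13 (edgeR adjusted p = 0.0179). The call was lost without WT replicate 2 (0.0729) or ste12 replicate 3 (0.114), and when only these 2 groups were fitted (0.1). MSS11 was at 22.5, 21.7 and 11.1 CPM in ste12, where replicate 3 stood apart, and its log2 fold change against the wild type was -0.40 (adjusted p = 0.293).

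Set directly against each other, dig1 and ste12 differed in 5 of the 10 factors, against 21.7% of all tested genes, 11.6% higher and 10.1% lower. MSS11, PHD1 and FLO8 were higher in dig1, and MIT1 and ASH1 were lower. The log2 fold change was 1.15 ± 0.21 for MSS11 (2.22-fold, edgeR adjusted p = 0.000363), 0.84 ± 0.15 for PHD1 (adjusted p = 0.000393) and 0.76 ± 0.13 for FLO8 (adjusted p = 0.000198). It was -0.94 ± 0.12 for MIT1 (edgeR adjusted p = 9.89e-06) and -0.83 ± 0.10 for ASH1 (adjusted p = 1.91e-06). None of the 5 pairs of groups overlapped. The median size of the log2 fold change was 0.80 over the 10 factors and 0.23 over all genes. MGA1 had a log2 fold change of 0.88 (edgeR adjusted p = 0.0623) and passed without ste12 replicate 1 (0.0392) or dig1 replicate 2 (0.0411) and by the Wald test of DESeq2 (0.038). SOK2 had 0.51 (adjusted p = 0.136, and 0.0192 without dig1 replicate 1).

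**Figure D2:**
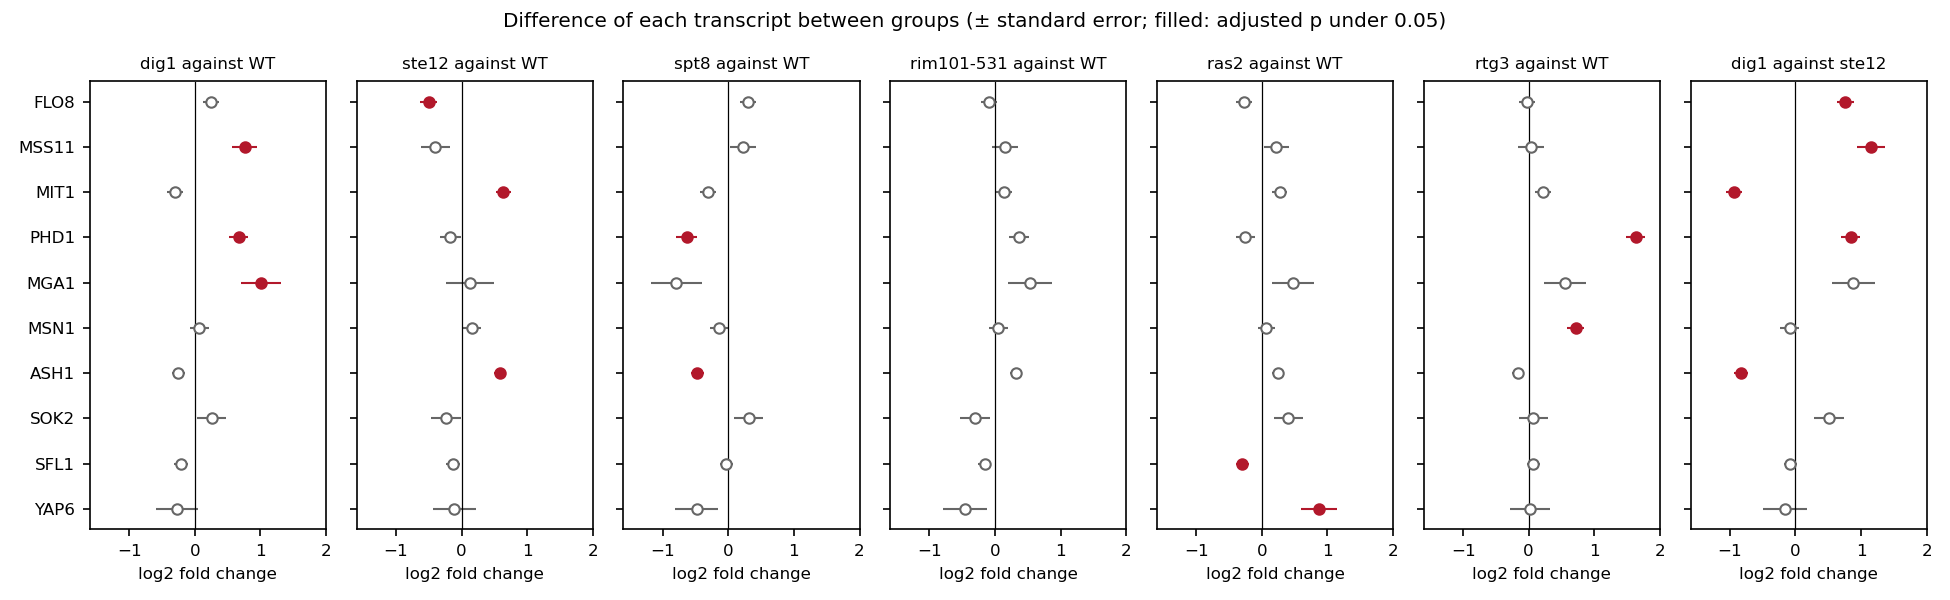
Log2 fold change of the 10 factors in each comparison, with standard errors as bars and filled points where the adjusted p was under 0.05. The panel of dig1 against ste12 has 5 filled points and that of rim101-531 against the wild type has 0.

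In rtg3, PHD1 and MSN1 rose and no factor fell, 2 of 10 against 20.5% of all tested genes, 9.32% higher and 11.2% lower. Levels of PHD1 were 71.2, 79.1 and 65.5 CPM in rtg3 and 23.9, 21.1 and 24.4 CPM in the wild type. The lowest rtg3 library was above every library of the other groups, the next highest of which was a dig1 library at 40.5 CPM. The log2 fold change was 1.63 ± 0.14, or 3.10-fold (edgeR adjusted p = 3.51e-08). Msn1 is an activator with roles in invasive growth and in starch and iron use. It was at 71.2, 56.7 and 59.0 CPM in rtg3 against 38.1, 39.3 and 35.9 CPM in the wild type, with a log2 fold change of 0.72 ± 0.13 (edgeR adjusted p = 0.000501). Outside rtg3, MSN1 kept between 29.7 and 44.9 CPM. The other 8 factors had log2 fold changes between -0.17 and 0.55 in rtg3, and MGA1, at 0.55, passed only without WT replicate 1 (0.0362).

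FLO11, the output that many of these factors act on, fell in rtg3 while PHD1 rose. It was at 710.2, 698.3 and 678.8 CPM there, against 14511, 18286 and 16624 CPM in the wild type, a log2 fold change of -4.57 ± 0.16 (edgeR adjusted p = 6.06e-14). The group with the most PHD1 thus had the least FLO11, while dig1, next in PHD1, had the most FLO11, at 34272 ± 393.5 CPM (SD, n = 3). FLO11 fell in spt8 to 1928 CPM, in ste12 to 3295 CPM and in ras2 to 6829 CPM. In rim101-531 it was at 12647 CPM and did not pass (adjusted p = 0.145).

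The PHD1 promoter is shown because PHD1 had the widest range of the 10 factors and the shortest distance to the gene before it. PHD1 (YKL043W, XI, 356748 to 357848, plus strand) starts 105 bases after the end of MMO1 (YKL044W, 356322 to 356642, same strand). The stop codon of MMO1 and the start codon of PHD1 are in capitals.
PHD1, 250 bases before to 50 after the start, XI:356498-356797, plus strand: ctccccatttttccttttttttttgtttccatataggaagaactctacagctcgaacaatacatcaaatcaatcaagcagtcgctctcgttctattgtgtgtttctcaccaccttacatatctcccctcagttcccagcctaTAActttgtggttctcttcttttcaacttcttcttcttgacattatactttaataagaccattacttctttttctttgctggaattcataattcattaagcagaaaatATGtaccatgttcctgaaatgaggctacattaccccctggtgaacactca
MMO1, named here after its values were seen, was at 8.44, 8.18 and 6.10 CPM in rtg3, 2.90, 5.53 and 3.49 CPM in the wild type and 0.631, 0.715 and 1.75 CPM in spt8. It rose in rtg3 (log2 fold change 0.91, edgeR adjusted p = 0.0388), fell in spt8 (-1.92, adjusted p = 0.00451) and was higher in dig1 than in ste12 (1.58, adjusted p = 0.0121), the same directions as PHD1. These levels of MMO1 are low, and it did not pass in the other comparisons. In dig1 against the wild type, where PHD1 passed, MMO1 had 0.32 (edgeR adjusted p = 0.602). It had -0.51 in rim101-531, where PHD1 had 0.36. In ste12 (-1.26) and ras2 (-0.92) its sign was that of PHD1. Whether reads of one transcript fell on both genes was not tested. RRI2, the gene 320 bases before MSN1 on the same strand and also named after its values were seen, rose in rtg3 as MSN1 did (0.79, edgeR adjusted p = 0.0299). Without passing, RRI2 had 0.68 in ras2 (edgeR adjusted p = 0.051) and 0.62 in spt8 (0.0911), where MSN1 had 0.07 and -0.14.

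**Figure D3:**
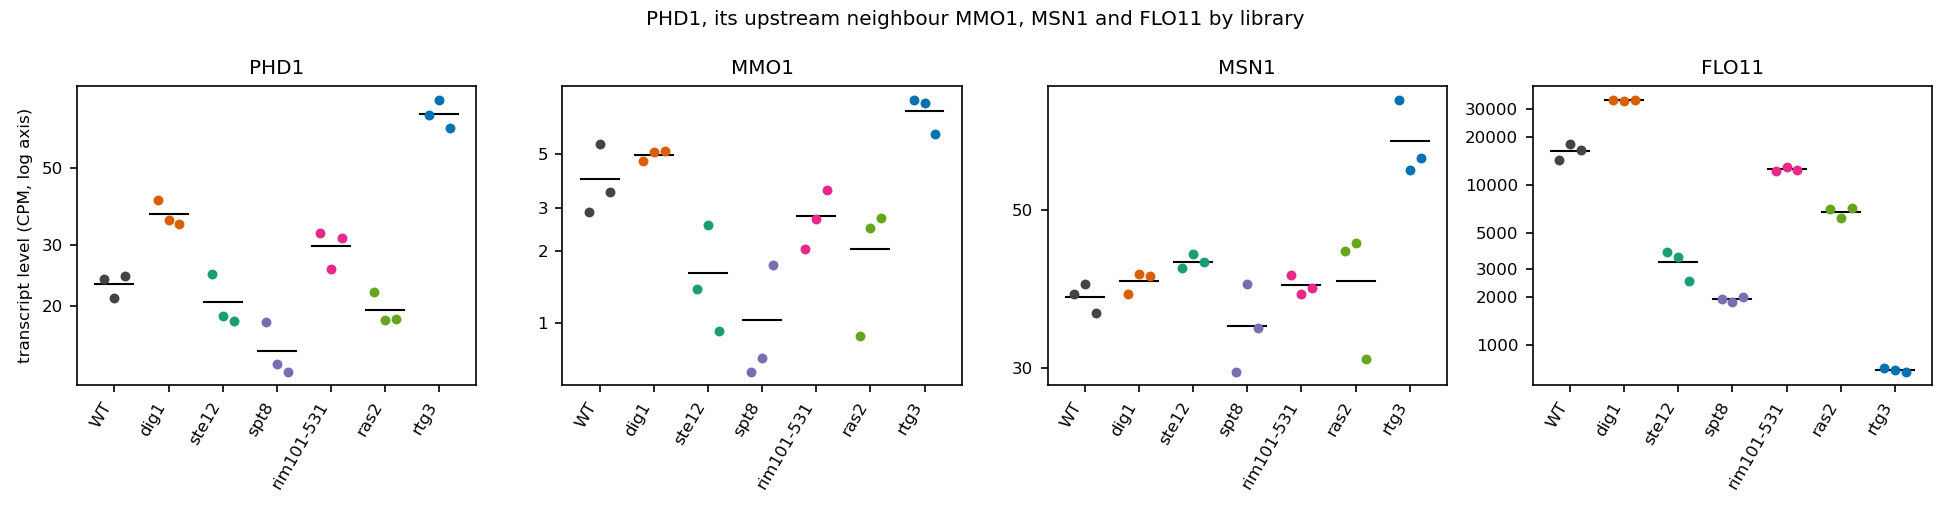
Transcript level in CPM (log axes) of PHD1, its upstream neighbour MMO1, MSN1 and FLO11 in each library, with bars for means of 3. The rtg3 libraries are the highest for PHD1, MMO1 and MSN1 and the lowest for FLO11, at 678.8 to 710.2 CPM.

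In spt8, PHD1 and ASH1 fell and no factor rose, 2 of 10 against 25.5% of all tested genes, 11.1% higher and 14.4% lower. PHD1 was at 18, 13.6 and 12.9 CPM in spt8, all under the wild-type libraries at 21.1 to 24.4 CPM, with a log2 fold change of -0.63 ± 0.16 (edgeR adjusted p = 0.00654). ASH1 was at 80.5, 73.2 and 67.8 CPM against 101.1 to 104.0 CPM in the wild type, a log2 fold change of -0.47 ± 0.10 (edgeR adjusted p = 0.00116). ASH1 thus fell in spt8 and rose in ste12, and both mutants are labelled hypofilamentous. FLO8 had a log2 fold change of 0.30 (edgeR adjusted p = 0.0734) and passed without spt8 replicate 1 (0.0152) and with upper quartile factors (0.0231). MIT1 had -0.31 (edgeR adjusted p = 0.0712, and 0.0349 without spt8 replicate 1), and MGA1, at 4.73, 1.79 and 5.24 CPM, had -0.79 (0.152, and 0.0431 without WT replicate 2). Over all genes, the split of calls was 641 higher and 833 lower, and 917 and 686 with upper quartile factors.

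In ras2, YAP6 rose and SFL1 fell, 2 of 10 against 25.3% of all tested genes, 10.3% higher and 14.9% lower, and each call depended on single libraries. Yap6 is a basic leucine zipper protein, and Sfl1 is a repressor of FLO11 that protein kinase A inhibits. YAP6 was at 18.6, 13.2 and 18.8 CPM in ras2 and at 7.42, 12 and 8.03 CPM in the wild type. All ras2 libraries lay above the others of the series, which reached 12 CPM, and the log2 fold change was 0.87 ± 0.28 (edgeR adjusted p = 0.0272). The call was lost without WT replicate 1 (0.0921), WT replicate 3 (0.0874), ras2 replicate 1 (0.0776) or ras2 replicate 3 (0.0873).

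SFL1 was at 77.8, 74.6 and 85.5 CPM in ras2 and at 91.6, 98.5 and 102.9 CPM in the wild type, a log2 fold change of -0.30 ± 0.10 (edgeR adjusted p = 0.0293). The groups did not overlap, and the call was lost without WT replicate 1 (0.0501), WT replicate 2 (0.0848), WT replicate 3 (0.146), ras2 replicate 1 (0.0777) or ras2 replicate 2 (0.156). It was also lost with upper quartile factors (0.0716) and when only these 2 groups were fitted (0.0585). FLO8, at 34.6, 31.7 and 33.6 CPM, lay under every wild-type library without passing (log2 fold change -0.27, edgeR adjusted p = 0.116). ASH1, at 121.0, 117.5 and 125.7 CPM, had a log2 fold change of 0.24 (0.063) and passed with upper quartile factors (0.0293) and by DESeq2 (0.0359). MGA1, at 0.48, passed without WT replicate 1 (0.0472). With upper quartile factors the calls over all genes were 734 higher and 695 lower, in place of 598 and 864.

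In rim101-531, 0 of the 10 factors passed in edgeR, against 3.08% of all tested genes, 1.28% higher and 1.80% lower. At an unadjusted p under 0.05 there were 2 factors, ASH1 and PHD1, against 17.2% of all tested genes, a share close to theirs. DESeq2 called 1, against 4.56% of all genes. ASH1 was at 133.3, 122.1 and 127.8 CPM against 101.1 to 104.0 CPM in the wild type, without overlap, and its log2 fold change was 0.32 ± 0.09 (edgeR adjusted p = 0.0805; DESeq2 adjusted p = 0.0256). PHD1 was at 32.4, 25.6 and 31.4 CPM, also above the wild type, with a log2 fold change of 0.36 ± 0.15 (edgeR adjusted p = 0.21).

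SOK2, a repressor of pseudohyphal growth related to PHD1, passed in none of the 7 comparisons. Its libraries spread widely within groups, at 45.5, 75.7 and 53.4 CPM in the wild type and 46.5, 89.7 and 73.6 CPM in dig1. In ras2 they lay close together, at 75.7, 75.1 and 79.3 CPM, and the log2 fold change against the wild type was 0.40, with a 95% interval from -0.03 to 0.83. Its mean within-group coefficient of variation was 18.5%, against 5.95% for ASH1.

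The order of the group means differed between factors. MIT1 and ASH1 were both highest in ste12 and had their lowest mean in spt8, where the libraries overlapped those of dig1 for both genes. For ASH1 the libraries of ste12, of rim101-531 and ras2 together, and of the wild type occupied separate ranges. MSS11 and MGA1 were highest in dig1. For MSS11 the dig1 libraries lay above those of every other group. For MGA1 the lowest dig1 library, at 11.3 CPM, lay under the highest of rim101-531 and of ras2, each at 12.1 CPM. FLO8 was highest in spt8 and dig1, which overlapped, and lowest in ste12. For PHD1, rtg3, dig1 and rim101-531 each stood apart from the next lower group, the wild type, ste12 and ras2 overlapped in turn, and spt8 was last at 14.8 ± 2.75 CPM (SD, n = 3).

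Of 5321 genes compared by the Pearson correlation of group means in log2 CPM over the 7 groups, the most alike to FLO8 were OPY2 (r = 0.968) and AVL9 (0.967), and to MSS11 they were SVS1 (0.987) and MNT3 (0.974). The closest to MIT1 were ERG29 (0.960) and VMA13 (0.951), and to ASH1 YPR044C (0.957) and RRT6 (0.954). RCI37 (0.960) and QDR2 (0.949) were closest to PHD1, and YGR122W (0.948) and PKP2 (0.943) to MSN1. For MGA1 they were YHR127W (0.969) and CLB1 (0.954), for SFL1 PCL10 (0.992) and PAC2 (0.984), and for YAP6 MCD1 (0.987) and SHH3 (0.961). These are the highest of many correlations over 7 points from the same libraries and are given as description.

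Among 30 other regulators of filamentous growth, TEC1, the partner of Ste12 at filamentation genes, fell in ste12 (log2 fold change -1.34), spt8 (-0.81), ras2 (-0.96) and rtg3 (-0.41) and rose in dig1 (0.53). NRG2, a repressor of FLO11, rose in ste12 (1.13), dig1 (1.66), spt8 (1.06), ras2 (0.87) and rtg3 (0.79). NRG1, its relative, rose in rtg3 (2.03, edgeR adjusted p = 8.02e-09) and dig1 (0.61) and fell in spt8 (-1.04) and ste12 (-0.61). By comparison with the wild type, and beside the shares of all genes called given above for each mutant, 4 of 28 tested rose and 4 fell in ste12, 6 and 1 of 28 in dig1, 3 and 7 of 29 in spt8, 1 and 2 of 28 in rim101-531, 6 and 4 of 29 in ras2, and 8 and 2 of 28 in rtg3. Between dig1 and ste12, 5 of 27 were higher in dig1 and 4 lower. The list's median log2 fold change lay between -0.08 in spt8 and 0.24 in rtg3, where the median of all genes was 0.02 and 0.00.

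Of 15 genes of the Ras and protein kinase A pathway, which acts on Flo8 and Sfl1, 0 passed in ste12 and in rim101-531 by edgeR and by DESeq2, with 2 in each at an unadjusted p under 0.05, where all tested genes had 23.3% in ste12 and 17.2% in rim101-531. The numbers higher and lower were 1 and 0 in dig1, 1 and 1 in spt8, 3 and 1 of 14 tested in ras2, 3 and 1 in rtg3, and 3 and 1 in dig1 against ste12. The shares of all tested genes called by edgeR were 9.97% in ste12, 15.7% in dig1, 25.5% in spt8 and 3.08% in rim101-531. They were 25.3% in ras2, 20.5% in rtg3 and 21.7% in dig1 against ste12. The list's median log2 fold change lay between -0.22 in spt8 and 0.22 in rtg3, where the median of all genes was 0.02 and 0.00. BCY1, the regulatory subunit that holds the kinase inactive, rose in dig1 (log2 fold change 1.06, edgeR adjusted p = 0.000945). CDC25, the exchange factor that activates Ras, rose in spt8 (0.68), ras2 (0.67) and rtg3 (0.43), and TPK2, the kinase subunit known for filamentation, rose in rtg3 (0.89, edgeR adjusted p = 0.0301). Among the outputs, FLO10, a flocculin gene, rose in dig1 from 53.8 to 1005.2 CPM and fell in ste12 to 24.7 CPM. PGU1, which encodes a pectin-degrading enzyme, rose in dig1 (3.68) and fell in the other 5 mutants, by 0.99 in rim101-531 to 3.79 in ste12 on the log2 scale. CLN1, a G1 cyclin gene, rose in dig1 (0.71) and ras2 (0.32) and fell in ste12 (-1.17). ICR1, the noncoding RNA transcribed across the FLO11 promoter, rose in dig1 (1.26, edgeR adjusted p = 0.00223), where FLO11 was also highest.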

How the data were processed

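The deposited values are raw counts of reads on genes, with 1 table per library. Per the submitters' processing notes, bcl2fastq, TopHat2 2.0.19, HTSeq 0.6.1 and build R64 were used. For filters, annotation version and strand the setting is not stated in labels or headers, so antisense and overlapping reads cannot be told apart. Records that HTSeq gave to no gene, 40.1% to 47.8% of a library's, were left out. This share differed by group, at 46.9% to 47.8% in dig1 and 40.1% to 40.2% in rtg3. Records not aligned uniquely made up 27.3% to 28.6% in dig1, 20.8% to 21.6% in the wild type and 18.6% to 18.9% in rtg3. Their effect on the counts of any gene, FLO11 and FLO10 included, was not tested. All replicate pairs differed by more than sampling noise (chi-square per degree of freedom 1.93 to 56.9).

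Genes passing filterByExpr (5786) were fitted in edgeR 4.0.16 (R 4.3.3) with TMM factors (0.893 to 1.16), 1 mean per group over 21 libraries, two-sided quasi-likelihood tests and Benjamini-Hochberg adjustment over all tested genes, threshold 0.05. The steps were tested on simulated data. The members and the lists of other genes were chosen with earlier results of these data known. Named genes were the 10 factors, the 5 outputs, other regulators and Ras pathway genes. The regulators and Ras pathway genes came from up to 3 and up to 2 per comparison, by smallest p among those called. Not all of those picks are named above, among them HMS2, CIN5 and HMS1, the regulators picked in rim101-531. The 2 genes most like each factor that passed the test among groups were also named, of those with a mean of at least 10 CPM. Alternatives were DESeq2 1.42.0, its size factors or upper quartile factors in edgeR, no filter, a replicate block, only 2 groups fitted, each library left out, and the 5 other mutants as reference. Coordinates and sequences are from RefSeq R64.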

Additional observations from a re-analysis of the deposited data

How the results depend on the processing

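Of 70 comparisons of 1 factor, 17 were called and 13 of those kept their call in every alternative; the calls of FLO8 in ste12, MGA1 in dig1 and YAP6 and SFL1 in ras2 did not. Of the 53 not called, 34 were never called. No call changed sign; 15 comparisons changed sign in 33 fits, called in neither. Against the mean of the 5 other mutants in place of the wild type, the number of factors called was 5 in ste12 (27.3% of all genes), 6 in dig1 (21.2%), 6 in spt8 (31.0%), 1 in rim101-531 (5.72%), 5 in ras2 (29.3%) and 4 in rtg3 (35.3%). DESeq2 called 1 in rim101-531 (4.56% of all genes), 3 in ras2 (26.1%) and 6 in dig1 against ste12 (21.9%). Fitting only the 2 groups left 2 in ste12 (7.26%), 2 in dig1 (6.79%) and 1 in ras2 (27.5%). The other pairwise counts did not move under these 2 settings. Leaving out each library in turn gave 2 to 3 in ste12, 2 to 3 in dig1, 2 to 4 in spt8, 0 to 0 in rim101-531, 0 to 1 in ras2, 2 to 3 in rtg3, 5 to 6 in dig1 against ste12 and 8 to 10 among the 7 groups. The share of all genes called was not taken in these fits. Their ranges therefore cannot tell a change in the factors from a change in all genes. Replicate numbers did not pair all libraries: same-numbered deviations of replicates 1 and 2 correlated positively in the 5 other mutants with the wild type (0.159 to 0.427) and in dig1 with ste12 (0.527 and 0.54) but at -0.237 and -0.254 in rtg3 with the wild type, and those of replicate 3 lay between -0.0311 and 0.0347. With the replicate block, 3 factors were called in ste12 (13.4% of all genes), 3 in dig1 (19.1%) and 3 in spt8 (30.9%). The block gave 0 in rim101-531 (4.65%), 2 in ras2 (30.6%), 2 in rtg3 (28.0%), 6 in dig1 against ste12 (24.9%) and 10 among the 7 groups. For the test among the 7 groups, the share of all genes was not taken with the block. Without the block it was 63.5%. The gains were MIT1 in spt8 (edgeR adjusted p = 0.0452), MGA1 in dig1 against ste12 (0.0358) and SOK2 among the groups (0.0151). Replicate 2 held the highest level in 5 of 7 groups for SOK2 and MSN1, and replicate 1 did so for MIT1 and PHD1. Upper quartile factors also moved the split over all genes in rtg3, from 539 higher and 646 lower to 735 and 512. No scaling moved the median of all genes by over 0.1, and the cause of these moves was not tested. Depth limits MGA1 and YAP6 most.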
